A study of Rattus norvegicus with 2 samples.

Results

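Chemokines and their receptors were examined in 1 spleen sample of rats given cocaine and 1 control sample, called the cocaine spleen and the control spleen. Neither the sample titles nor the study state whether an array held RNA of 1 rat or of several. All genes whose symbols name a CC, CXC, CX3C or XC chemokine, a receptor for one, or an atypical chemokine receptor were taken, which gave 52 of the 15037 genes with a symbol on the array. Of these, 33 encode chemokines and 19 encode receptors, and each was measured by 1 transcript cluster, that is, 1 group of probes that together report a gene. The rats given cocaine were male Sprague-Dawley, 6 weeks old at the start, and received daily intraperitoneal cocaine at 50 mg/kg until day 7. Control rats were males of the same strain and age. The title of the control sample gives no stimulation, on which its use as the control rests. The study describes saline for control rats, but the treatment label of this sample names cocaine as well. Spleens were removed 24 h after the last injection. Total RNA was hybridized to a Clariom S array, which gives 1 signal per transcript cluster on a log2 scale. Differences below are log2 signals of the cocaine spleen with those of the control spleen subtracted, so that 1 stands for a doubled signal after cocaine. With 1 array per group no value has a replicate, an error or a p-value, and precision is limited by this number of arrays.

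Chemokines are small secreted proteins that bind G protein-coupled receptors on leukocytes and guide their movement. Homeostatic chemokines are made without infection and hold lymphoid tissue in order. In the white pulp of the spleen, stromal cells of the T cell zone make CCL19 and CCL21, which attract T cells and dendritic cells through CCR7, and follicular stromal cells make CXCL13, which attracts B cells through CXCR5. CXCL12 acts through CXCR4 and retains plasma cells and progenitors in the red pulp and bone marrow. Inflammatory chemokines such as CCL2, CXCL1 and CXCL10 are induced by infection or injury and recruit monocytes, neutrophils and effector T cells.

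The labelled tissue was checked against its markers. The B cell receptor component Cd79b had a signal of 15.7 in the cocaine spleen and 15.1 in the control spleen, the T cell receptor component Cd3e had 11.1 and 10.8, and the transcription factor of spleen development Tlx1 had 10.3 and 10.6. The array carries 23 background features, the highest of which stood at 7.76 on each array and is called the background limit here. Of the 52 genes, 28 had both signals under this level, 21 had both above it, and in 3 only 1 signal lay above it. This limit exceeds the median of all transcript clusters (6.97 on each array), and genes below it may still be expressed. Where both signals lie under it, the size and direction of a difference are not interpreted. The negative control features of the array had medians of 7.55 in the cocaine spleen and 7.45 in the control spleen, just under the limit. A signal above the limit therefore does not by itself show expression. The negative control features reached higher signals, with a 95th percentile of 12.2 in the cocaine spleen and 11.6 in the control spleen. Of them, 19.7% differed by at least 2-fold between the arrays. Only 6 of the 52 genes, Ccl21, Ccl6, Ccr6, Ccr7, Cxcl12 and Cxcl13, had both signals above that percentile. Of the tissue markers above, Cd79b exceeded it on each array, whereas Cd3e and Tlx1 did not. No chemokine gene came near the highest signals of the arrays (19.7 in the cocaine spleen and 19.9 in the control spleen).

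Of the 52 genes, 5 (9.62%) were at least 2-fold higher in the cocaine spleen, against 2.28% of all named genes, and 2 (3.85%) were at least 2-fold lower, against 4.97%. The higher genes were Ccl21, Ccl19, Ccl5, Cxcr6 and Ccr6, and the lower genes were Ccl6 and Xcr1. Among the genes with both signals above the background limit, 4 of 21 chemokine genes were at least 2-fold higher (2.15% of all such named genes) and 1 was at least 2-fold lower (6.96%). When each array was centred on its 75th percentile, 7 genes were at least 2-fold higher (3.38% of all named genes under this scaling) and 1 was at least 2-fold lower (4.37%). At 1.5-fold, 15 of the 52 were higher (11.6% of all named genes) and 3 were lower (11.7%). None of the 52 genes was 4-fold higher (0.0333% of all named genes) or 4-fold lower (1.64%). The median difference was 0.14 over the 52 genes and 0.04 over all named genes. By role, the median was -0.0089 for the 33 chemokines and 0.44 for the 19 receptors, against 0.32 and 0.31 over those with both signals above the background limit.

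**Figure D1:**
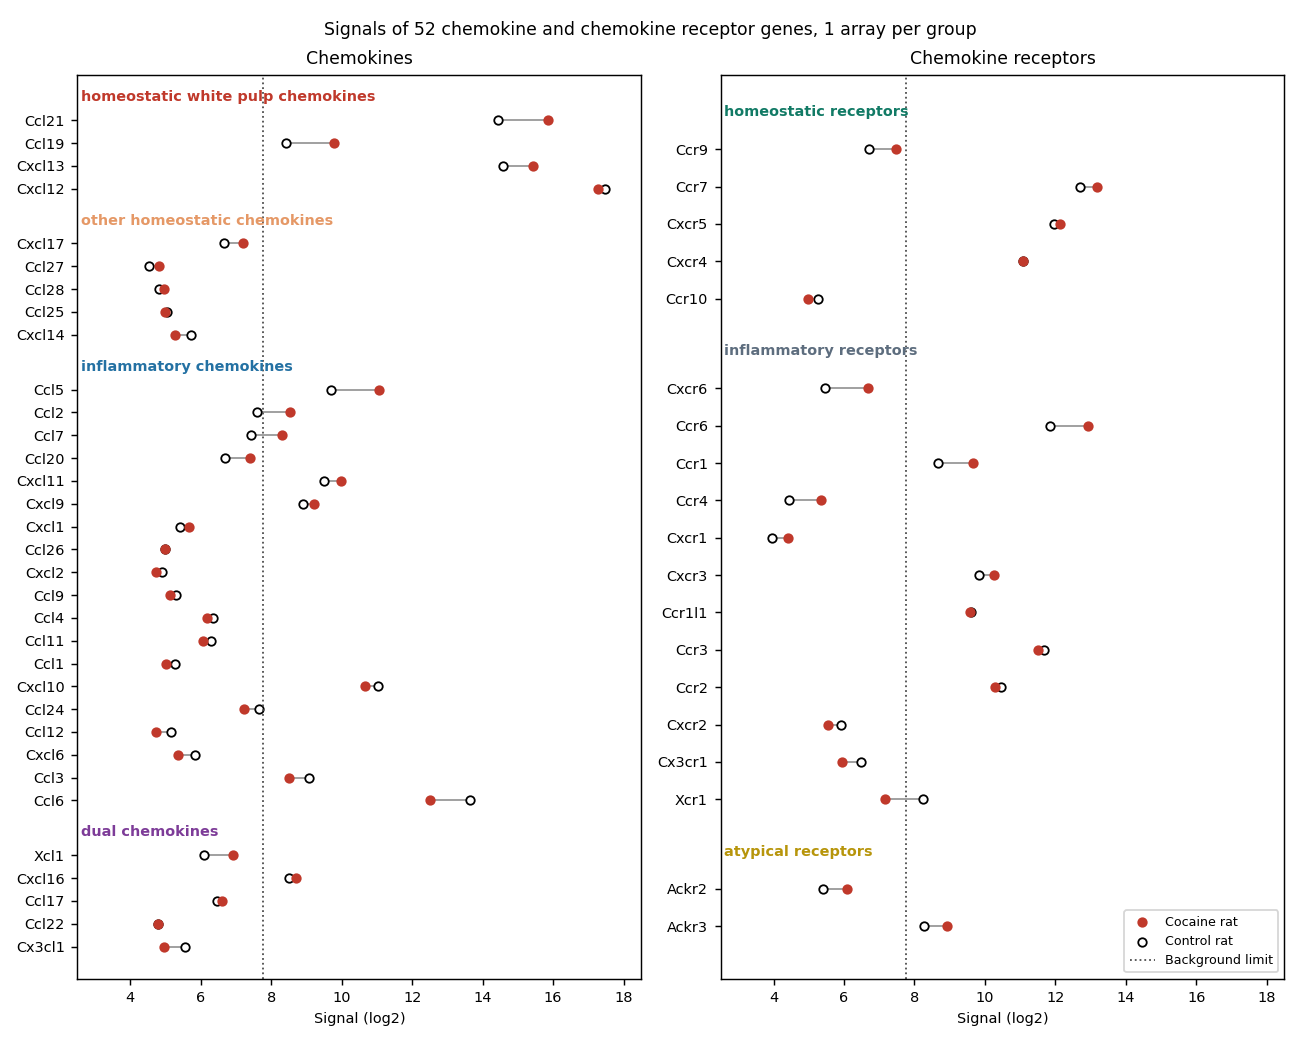
Signals (log2, horizontal axis) of the 52 genes in the cocaine spleen (filled) and the control spleen (open), grouped by class and ordered within a class by difference, with the background limit as a dotted line. Ccl21, Ccl19 and Cxcl13 lie to the right in the cocaine spleen, and 28 genes have both points left of the dotted line.

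The white pulp chemokines had the highest median difference of the classes. It was 1.10 over 4 genes, and 2 of the 4 were at least 2-fold higher (2.28% of all named genes). Ccl21, which draws T cells and dendritic cells into the T cell zone, had a signal of 15.84 in the cocaine spleen and 14.44 in the control spleen. This difference of 1.40, or 2.64-fold, was, in the signals as deposited, the largest of the 52 genes and the 54th highest of the 15037 named genes. Ccl19, the second ligand of CCR7, had 9.79 in the cocaine spleen and 8.42 in the control spleen, which is 2.57-fold higher and the 69th highest difference. Cxcl13, the B cell chemokine of the follicles, had 15.42 in the cocaine spleen and 14.58 in the control spleen, a difference of 0.84 (1.79-fold). Cxcl12 was counted in this class, although it is described above as acting in the red pulp and bone marrow. It did not follow the other 3: its signals were 17.26 in the cocaine spleen and 17.47 in the control spleen, a difference of -0.21. All 8 signals of this class lay above the background limit, and the signs were the same under each scaling tried. Both Ccl19 signals, however, lay below the 95th percentile of the negative controls (12.2 in the cocaine spleen, 11.6 in the control spleen).

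The receptors of the CCR7 and CXCR5 pairs differed less than their ligands. Ccr7 had 13.17 in the cocaine spleen and 12.70 in the control spleen, a difference of 0.47 beside 1.40 for Ccl21 and 1.36 for Ccl19. Cxcr5, which brings B cells to follicles, had a difference of 0.17 (12.14 in the cocaine spleen, 11.97 in the control spleen) beside 0.84 for Cxcl13. Cxcr4 had signals of 11.08 on each array, a difference of 0.0052 beside -0.21 for Cxcl12, and its sign turned with the scaling. Quantile normalization gave Cxcl12 a difference of -0.40, and a loess correction for mean signal gave -0.45. Ackr3, an atypical receptor that takes up CXCL12 and CXCL11 without G protein signaling, had 8.92 in the cocaine spleen and 8.28 in the control spleen, a difference of 0.64. The medians of the receptor classes were 0.17 for 5 homeostatic, 0.20 for 12 inflammatory and 0.66 for 2 atypical receptors. Over the 6 inflammatory receptors with both signals above the background limit the median was again 0.20.

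The upstream sequences of the 3 white pulp chemokines with positive differences are shown because these genes differed in the same direction, with that of Cxcl10, an inflammatory chemokine, for contrast. They are the 250 bases before the annotated start in RefSeq (build GRCr8), 5′ to 3′ on the strand of the gene. The array annotation gives no build, so these positions are those of RefSeq only. Ccl19 lies at chr5:61761165-61761414, minus strand, Ccl21 at chr5:61777516-61777765, minus strand, Cxcl13 at chr14:13917921-13918170, minus strand, and Cxcl10 at chr14:15988816-15989065, plus strand. Capitals mark matches, on either strand, to 4 motifs: the kB consensus bound by NF-kB, the interferon-stimulated response element (its core GAAANNGAA), the gamma-activated sequence bound by STAT factors (TTCNNNGAA), and the TATA box (TATAAA).
Ccl19: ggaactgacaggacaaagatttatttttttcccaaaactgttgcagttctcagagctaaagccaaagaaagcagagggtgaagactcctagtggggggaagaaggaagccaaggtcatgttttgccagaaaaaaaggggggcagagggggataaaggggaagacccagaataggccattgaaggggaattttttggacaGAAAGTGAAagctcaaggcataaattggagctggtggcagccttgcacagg
Ccl21: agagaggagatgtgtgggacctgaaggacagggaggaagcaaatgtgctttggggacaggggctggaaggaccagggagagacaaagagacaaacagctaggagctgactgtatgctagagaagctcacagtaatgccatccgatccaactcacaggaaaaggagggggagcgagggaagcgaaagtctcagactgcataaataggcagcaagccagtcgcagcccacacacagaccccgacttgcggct
Cxcl13: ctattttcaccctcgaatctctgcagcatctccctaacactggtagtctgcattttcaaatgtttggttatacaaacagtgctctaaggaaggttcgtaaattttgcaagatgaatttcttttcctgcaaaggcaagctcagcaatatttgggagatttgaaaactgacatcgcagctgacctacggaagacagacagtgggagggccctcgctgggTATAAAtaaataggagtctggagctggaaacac
Cxcl10: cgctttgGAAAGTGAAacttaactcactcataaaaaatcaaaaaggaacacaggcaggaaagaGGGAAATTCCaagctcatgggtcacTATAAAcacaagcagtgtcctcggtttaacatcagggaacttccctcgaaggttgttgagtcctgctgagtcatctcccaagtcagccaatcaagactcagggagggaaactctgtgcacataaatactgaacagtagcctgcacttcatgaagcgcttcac

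These 4 sequences held different motifs. Ccl19 had 1 match to the interferon-stimulated response element, beginning at position -51 from the start, and Cxcl13 had a TATA box beginning at -33. Ccl21 matched none of the 4 motifs. Cxcl10 had the interferon-stimulated response element at -243, a kB match at -187 and a TATA box at -162. No 2 motifs overlapped in these windows. Upstream sequences were found for 42 of the 52 genes, and the shares of all 33469 RefSeq windows of this length serve as background. The kB consensus occurred in 8 of the 42 (3.54% of all windows), namely Ccl20, Ccl9, Ccr3, Cxcl1, Cxcl10, Cxcl11, Cxcl2 and Cxcl6. In Cxcl1, Cxcl2 and Cxcl6 the kB matches on the 2 strands overlap each other. The core of the interferon-stimulated response element occurred in 3 (8.12%), Ccl19, Ccr2 and Cxcl10, the gamma-activated sequence in 4 (7.67%) and the TATA box in 12 (12.9%). A match is a description of the letters only.

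The remaining homeostatic chemokines could not be read at these signals. Ccl25, Ccl27, Ccl28, Cxcl14 and Cxcl17, which act mainly at gut, skin and other surfaces, had signals between 4.82 and 7.20 in the cocaine spleen and between 4.53 and 6.65 in the control spleen, all below the background limit. The same holds for Ccr9 and Ccr10, receptors for CCL25 and for CCL27 and CCL28.

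The 19 inflammatory chemokines did not differ as a group in one direction. Their median difference was -0.19, and 7 of 19 (36.8%) were above 0, against 53.2% of all named genes. At 2-fold 1 (5.26%) was higher, against 2.28% of all named genes, and 1 (5.26%) was lower, against 4.97%. In 11 of the 19 both signals were below the background limit, so that the signs of these 11 are not interpreted. In Ccl2 and Ccl7 only the control signal was below it. Over the 6 with both signals above it the median was -0.016. The white pulp median exceeded the inflammatory one by 1.29 over all members and by 1.12 over those with both signals above the background limit. Of the 19 inflammatory genes, 3 (Ccl5, Ccl2 and Ccl7) had a difference above that of Cxcl13. The difference of Ccl5 (1.362) was nearly the same as that of Ccl19 (1.364). With 4 genes in 1 class and 1 array per group, this contrast has no test.

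**Figure D2:**
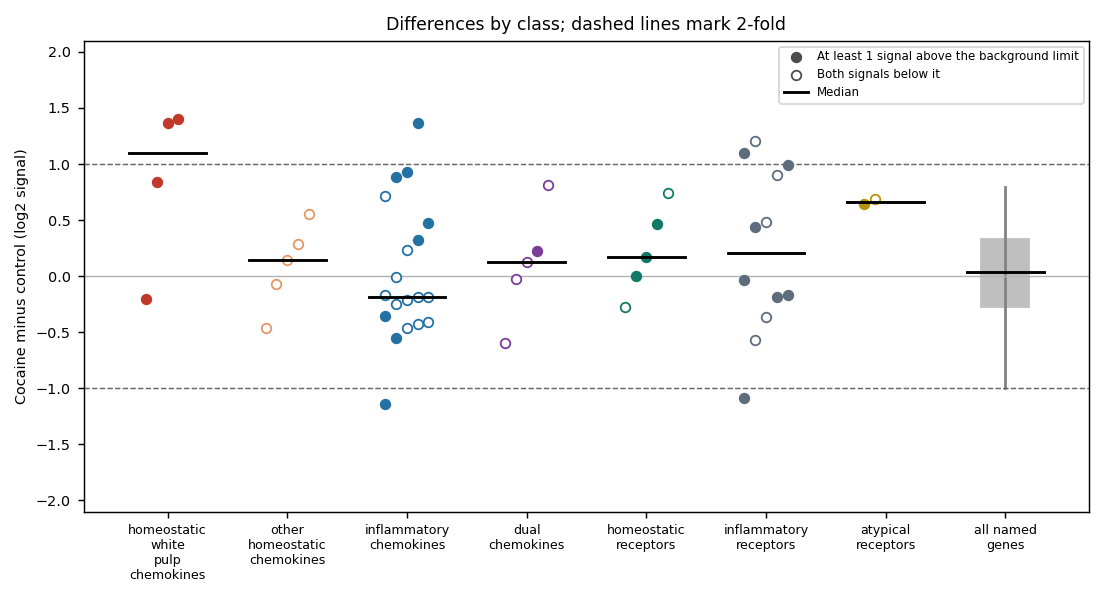
Difference of each gene (cocaine minus control, log2 signal, vertical axis) by class, with the class median as a bar; filled points have at least 1 signal above the background limit and open points have both under it. The grey box and line at the right span the 25th to 75th and the 5th to 95th percentiles of all named genes. The white pulp class has its median at 1.10 and the inflammatory class at -0.19.

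Among the ligands of CCR2, which calls monocytes out of the blood, Ccl2 had 8.53 in the cocaine spleen and 7.60 in the control spleen, a difference of 0.93. Ccl7 had 8.30 in the cocaine spleen and 7.41 in the control spleen, a difference of 0.89. Both control signals lay below the background limit, and with these raised to it the differences were 0.77 and 0.54. Ccl2 was at least 2-fold higher with 75th percentile centring (1.02) and with quantile normalization (1.01). The receptor itself did not go with them: Ccr2 had 10.28 in the cocaine spleen and 10.46 in the control spleen, a difference of -0.18. The third ligand measured, Ccl12, had both signals below the background limit.

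Ligands of CCR1, which acts on monocytes, macrophages and T cells, went both ways. Ccl5 (RANTES), made by activated T and NK cells, had 11.05 in the cocaine spleen and 9.68 in the control spleen, and was 2.57-fold higher. Ccl6, a chemokine of rodent myeloid cells, had 12.51 in the cocaine spleen and 13.65 in the control spleen, and was 2.21-fold lower, the only ligand among the 52 genes with a difference below -1. Ccl3 (MIP-1 alpha), a product of macrophages and lymphocytes, had 8.51 in the cocaine spleen and 9.07 in the control spleen, a difference of -0.56. Ccl5 and Ccl6 were thus past 2-fold in opposite directions. Their receptor Ccr1 had 9.67 in the cocaine spleen and 8.68 in the control spleen, a difference of 0.99 that was just within 2-fold. It was past 2-fold with 75th percentile centring (1.09) and with quantile normalization (1.10). Ccr1l1, a relative of Ccr1 known in rodents, had a difference of -0.034. Ccl4 and Ccl9 had both signals below the background limit.

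The interferon-induced ligands of CXCR3, which recruit effector T cells, also differed in sign. Cxcl10 had 10.67 in the cocaine spleen and 11.02 in the control spleen, a difference of -0.35. Cxcl11 had a difference of 0.47 (9.98 in the cocaine spleen, 9.50 in the control spleen) and Cxcl9 one of 0.32 (9.22 in the cocaine spleen, 8.90 in the control spleen). All 3 were within 2-fold. Cxcr3 had 10.27 in the cocaine spleen and 9.83 in the control spleen, a difference of 0.44.

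The neutrophil chemokines Cxcl1, Cxcl2 and Cxcl6 had signals from 4.72 to 5.66 in the cocaine spleen and from 4.89 to 5.82 in the control spleen. Both signals of each were below the background limit, as were those of their receptors Cxcr1 and Cxcr2. The eosinophil chemokines Ccl11, Ccl24 and Ccl26 were likewise under it, whereas their receptor Ccr3 had 11.51 in the cocaine spleen and 11.67 in the control spleen, a difference of -0.17. In the RefSeq gene table Ccr1l1 lies inside the interval of Ccr3.

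Ccr6, the receptor through which CCL20 positions B cells and some T cells, was 2.15-fold higher, with 12.94 in the cocaine spleen and 11.84 in the control spleen. Both signals were above the 95th percentile of the negative controls. Its ligand Ccl20 had 7.40 in the cocaine spleen and 6.69 in the control spleen, both below the background limit.

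Of the 5 chemokines with both homeostatic and inflammatory roles, only Cxcl16, a membrane-bound ligand of CXCR6, had signals above the background limit, with 8.71 in the cocaine spleen and 8.49 in the control spleen. Its receptor Cxcr6, found on effector and innate-like T cells, had 6.67 in the cocaine spleen and 5.47 in the control spleen. This difference of 1.20 counts among the 5 at least 2-fold higher, but both signals were below the background limit. Xcr1, the receptor of cross-presenting dendritic cells, had 7.17 in the cocaine spleen and 8.26 in the control spleen. With the cocaine signal raised to the background limit, it was at least 1.41-fold lower, and with 75th percentile centring its difference was -0.995. Its ligand Xcl1, made by NK and CD8 T cells, had both signals below the background limit (6.91 in the cocaine spleen, 6.10 in the control spleen). Likewise the ligands Ccl17, Ccl22 and Cx3cl1, their receptors Ccr4 and Cx3cr1, the decoy receptor Ackr2 and the chemokine Ccl1 had no signal above it.

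**Figure D3:**
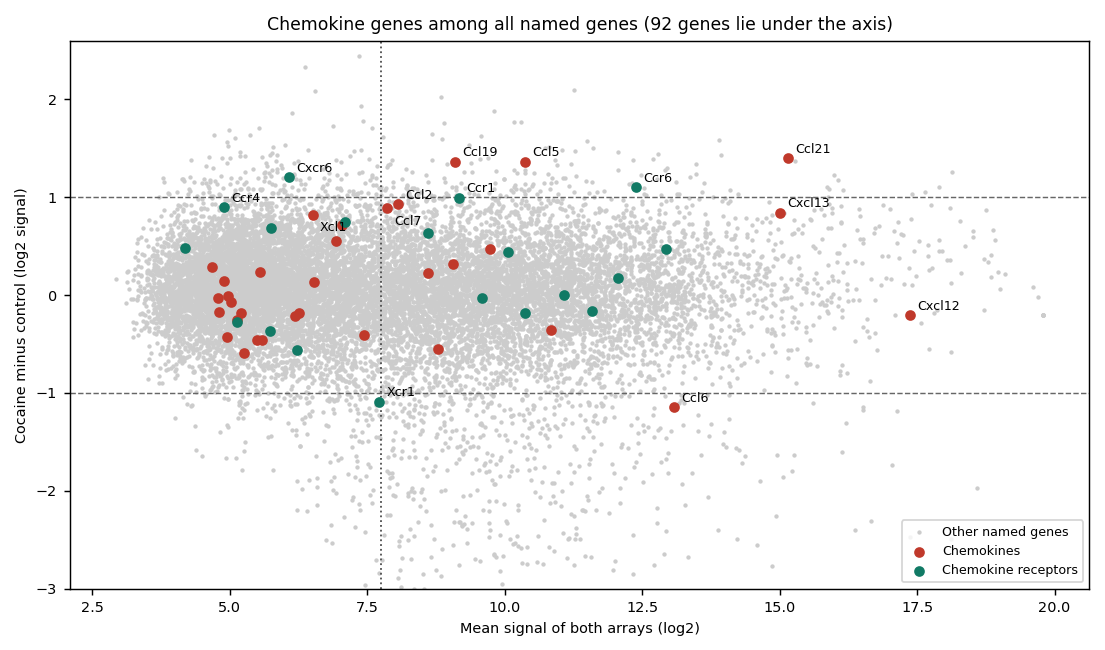
Difference (cocaine minus control, log2 signal) against the mean signal of both arrays for chemokines and receptors, over all other named genes in grey; dashed lines mark 2-fold and the dotted line the background limit. Ccl21, Ccl19, Ccl5 and Ccr6 lie above the upper dashed line at signals over the dotted line, and 92 genes with differences under -3 are not drawn.

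Chemokine genes lie in clusters, and neighbours did not always differ alike. By gene order in RefSeq, 33 of the 52 genes fell into 9 neighbourhoods, in which at most 9 other genes lay between 1 chemokine gene and the next. On chromosome 5, Ccl19 and Ccl21, with 1 gene between them, had like differences (1.36 and 1.40), while Ccl27 near them had both signals below the background limit. On chromosome 10, the adjacent Ccl2 and Ccl7 had differences of 0.93 and 0.89. In a second neighbourhood of chromosome 10, Ccl5 was at least 2-fold higher, and Ccl6, with Ccl9 and 2 other genes between, was at least 2-fold lower. On chromosome 14, Cxcl10 (-0.35) lay between Cxcl11 (0.47) and Cxcl9 (0.32). On chromosome 8, Ccr1 (0.99) lay next to Ccr3 (-0.17).

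**Figure D4:**
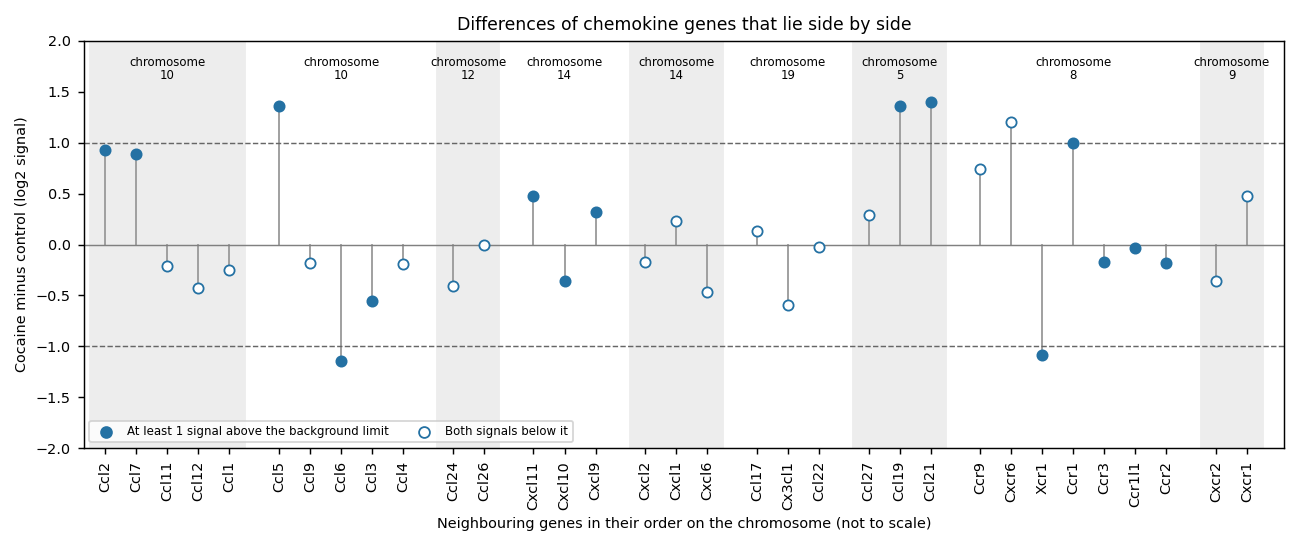
Differences (cocaine minus control, log2 signal) of 33 chemokine and receptor genes in their order along 9 neighbourhoods; shading separates neighbourhoods, distances are not to scale, and open points have both signals below the background limit. Ccl19 and Ccl21 stand at 1.36 and 1.40, and Ccl5 and Ccl6 at 1.36 and -1.14.

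Genes that act below the chemokine receptors were close to 0. Of 27 measured genes of chemokine receptor signaling (G proteins, kinases, arrestins and regulators), none was 2-fold apart, and the median difference was 0.055, beside 0.04 for all named genes. The differences ranged from -0.69 for Grk3, a kinase that phosphorylates active receptors, to 0.61 for Rgs16, which shortens G protein signals and had both signals below the background limit. Lymphotoxin and the other signals that build white pulp stroma had a median of 0.19 over 18 genes. Over the 8 with both signals above the background limit the median was 0.56, and 5 of these 8 were above 0. Lymphotoxin beta (Ltb), a lymphocyte signal that maintains CXCL13 and CCL21 in stroma, had 12.5 in the cocaine spleen and 11.7 in the control spleen, a difference of 0.77. Its receptor Ltbr had both signals below the background limit. The complement receptor Cr2 of B cells and follicular dendritic cells had a difference of 0.88, and the T zone survival factor Il7 one of 0.74. In the other direction, the TNF receptor Tnfrsf1a had a difference of -0.62, the NF-kB subunit Nfkb2 one of -0.28 and Tlx1 one of -0.27, and 10 of the 18 genes were above 0. The only gene of this list at least 2-fold higher was Pdpn (1.19), a marker of T zone stroma with both signals below the background limit. Among 13 genes of the interferon and NF-kB response, which include Cxcl9, the median was 0.29. Il6, an inflammatory cytokine, had 8.60 in the cocaine spleen and 6.98 in the control spleen. The control signal was below the background limit, and with it raised to the limit Il6 was 1.79-fold higher.

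Markers of several cell types differed beside the chemokine genes. In whole spleen RNA, fewer cells of a type and less RNA per cell cannot be told apart. All 10 erythroid markers were at least 2-fold lower (median -6.12), as were all 5 measured genes of dividing cells (median -3.91). With cocaine signals raised to the background limit, the erythroid factor Klf1 was within 2-fold (-0.34). Beside Ccl19, Ccl21 and Cxcl13, the 12 markers of lymphoid stroma had a median of 0.21. Tagln, Pdpn and Acta2 were at least 2-fold higher and Lum at least 2-fold lower. Both signals of Pdpn and Lum were below the background limit. Tagln encodes transgelin, a marker of smooth muscle contraction that the study measured as protein by immunoblot, whereas the Tagln signals here are of RNA. Acta2 encodes smooth muscle actin. Over the 9 markers with both signals above the limit the median was 0.45, 5 were above 0 and Pdgfrb was lowest (-0.87). Beside Ccr6 and Cxcr5, the 7 measured B cell markers had a median of 0.51, with Bank1 at least 2-fold higher (1.37) and Fcer2 lowest (-0.93), and the 11 T cell markers had a median of 0.12. Beside Ccl5, the 9 measured markers of NK and cytotoxic cells had a median of 0.50, the value of Gzmb, which had both signals below the background limit. Over the 6 with both signals above it the median was 0.53. These 6 ranged from -0.069 for Klrk1 to 1.65 for granzyme A (Gzma), and only Gzma was at least 2-fold higher. Beside Ccl6, 5 of 9 neutrophil markers were at least 2-fold lower, including Camp with both signals below the background limit (median -1.04, which is the value of Camp), and 3 of the 3 with both signals above it were at least 2-fold lower. By comparison, none of 11 markers of monocytes and macrophages was 2-fold apart (median -0.26). Beside Xcr1, which is itself in the list of dendritic cell markers, Clec9a, a marker of the same dendritic cells, had 8.963 in the cocaine spleen and 8.999 in the control spleen, a difference of -0.036. For lymphoid stroma the median signal of the list was 11.5 in the cocaine spleen and 11.4 in the control spleen, for B cells 14.1 and 13.7, for NK and cytotoxic cells 9.24 and 7.85, and for neutrophils 7.02 and 8.02. The part of these cell types in the chemokine differences was not tested. Of the endothelial markers, none of 8 was 2-fold apart.

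**Figure D5:**
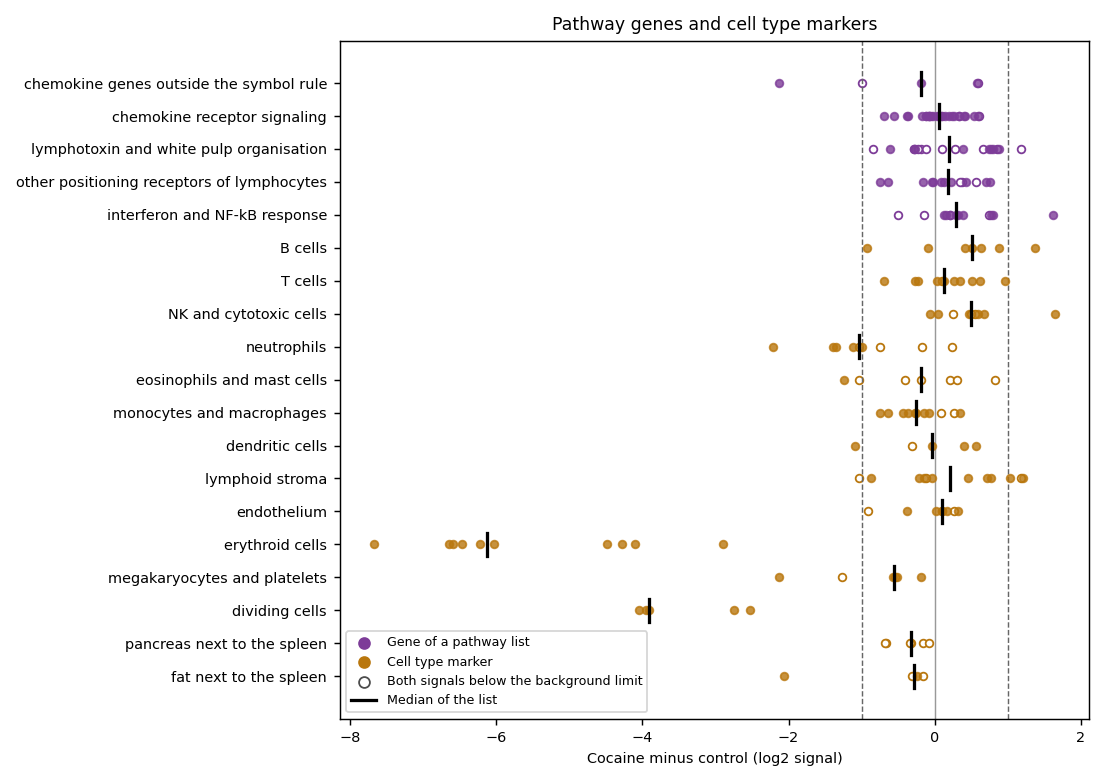
Differences (cocaine minus control, log2 signal, horizontal axis) of single genes in 5 pathway lists and 14 lists of cell type markers, with the median of each list as a bar and dashed lines at 2-fold; open points have both signals below the background limit. Erythroid markers lie at a median of -6.12, neutrophil markers at -1.04 and B cell markers at 0.51.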

How the data were processed

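Log2 signals per feature of 2 arrays (1 per group) were used as deposited by the authors, who isolated spleen RNA with TRIzol and RNeasy columns, treated it with DNase I and hybridized it to Clariom S rat arrays. The base of the logarithm was taken from the ratios that the study tabulates, which these values give when read as log2. How the background was corrected and the signals summarised and normalized is not stated in the labels or the methods. Among 24834 rows there were 23188 transcript clusters, and 0 columns were left out. Of the clusters, 15049 had 1 gene symbol, all found by gene identifier in RefSeq with 0 symbols changed. The members were chosen by symbol, and where a gene had several clusters, the one with the highest mean signal stood for it (each of the 52 genes had 1).

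Differences were taken as cocaine minus control and counted at 2-fold. No test, error or leave-one-out analysis was possible with 1 array per group. The members, classes and lists were chosen with earlier results of these data known. Genes given with values were the white pulp chemokines and their receptors, all members past 2-fold and their receptors, and the 3 highest and 3 lowest members of each class with a signal above the background limit. Cxcl9, Cxcl11, Ccl20, Ccr1l1, Xcl1 and genes of the other lists within 2-fold were named after their values were seen. Ccr8, Cxcl3, Ackr1 and Ackr4 were not analysed here. The alternatives were median and 75th percentile centring, quantile normalization, a loess correction for mean signal (span 0.3), a floor and a filter at the highest of 23 background features (the background limit), a filter at the array median, the mean over clusters, and thresholds of 1.5-fold and 4-fold. Filters on both signals, at the background limit and at the 95th percentile of the negative controls, were added after the data were seen. The interferon-stimulated response element was searched by its core, a choice made after matches to a longer form were seen. The scalings were checked on simulated data in which as many genes were shifted up as down. In the real data 748 named genes were at least 2-fold lower and 343 at least 2-fold higher. The check therefore does not cover such a lopsided shift. The tools were statsmodels 0.14.6, pandas 2.3.3 and numpy 2.4.6 under python 3.11.15, with matplotlib 3.10.9 for the figures.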

Additional observations from a re-analysis of the deposited data

How the results depend on the processing

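No chemokine or receptor gene past 2-fold changed sign under the 4 scalings, and the largest change of any of the 52 differences was 0.25, that of Cxcl12 with the loess correction. Ccl22, Ccl25, Ccl26, Ccr1l1 and Cxcr4, all close to 0, changed sign under at least 1 of them. Over all named genes, 75th percentile centring gave 509 genes at least 2-fold higher and 657 lower, against 343 and 748 as deposited, and a median of 0.13, against 0.04. It left 1 chemokine gene at least 2-fold lower and moved the median of the chemokines to 0.085. Quantile normalization moved the white pulp minus inflammatory contrast to 1.40, and the loess correction moved the white pulp median to 0.94. Median centring changed none of these counts and no median by over 0.1. The mean over transcript clusters could change nothing, since each gene had 1.

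With signals raised to the background limit, 4 genes were at least 2-fold higher and 1 was at least 2-fold lower. The medians were 0.0005, the gap between the limits of the arrays, for all members, for chemokines, for receptors and for homeostatic chemokines. They were also 0.0005 for inflammatory chemokines and for inflammatory receptors, 0.0052 for homeostatic receptors and 0.32 for atypical receptors. The white pulp minus inflammatory contrast was then 1.10. The share of all named genes past 2-fold with signals raised in this way was not computed. Over genes with a signal above that limit, the medians were 0.38 for all members, 0.47 for chemokines, 0.17 for receptors, 1.10 for homeostatic chemokines, 0.40 for inflammatory chemokines and -0.034 for inflammatory receptors, and the contrast was 0.70. Ccl2 and Ccl7 entered these medians only through the cocaine array and Xcr1 only through the control array. Over the 21 genes with both signals above the limit, 4 were at least 2-fold higher (2.15% of all such named genes) and 1 was lower (6.96%). The medians were 0.32 for all members, 0.32 for chemokines, 0.31 for receptors and 1.10 for homeostatic chemokines. They were -0.016 for inflammatory chemokines and 0.20 for inflammatory receptors, and the contrast was 1.12. With the array median as the limit, they were 0.45, 0.51, 0.31, 0.84, 0.40 and -0.034 in the same order, 0.32 for homeostatic receptors, and the contrast was 0.70. In these filters fewer genes enter each median. Over the 6 genes with both signals above the 95th percentile of the negative controls, 2 were higher and 1 was lower at 2-fold, with medians of 0.65 for all 6, 0.32 for chemokines, 0.79 for receptors and 0.84 for white pulp chemokines. Ccl6 (-1.14) was then the only inflammatory chemokine, and the contrast was 1.98. The share of all named genes past 2-fold under this filter was not computed. At 1.5-fold 15 genes were higher and 3 lower (11.6% and 11.7% of all named genes), and at 4-fold 0 were higher and 0 lower (0.0333% and 1.64%). No paired analysis was possible because each group has 1 array.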

Other observations

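Receptors and enzymes that position lymphocytes beside the chemokines differed little. Of 14 measured genes, none was 2-fold apart, and the median difference was 0.17, beside 0.04 for all named genes. The cannabinoid receptor Cnr2, which holds B cells in the marginal zone in mice, had 13.2 in the cocaine spleen and 12.4 in the control spleen, a difference of 0.76. S1pr1, the receptor through which lymphocytes leave lymphoid tissue, had a difference of 0.69 (8.23 in the cocaine spleen, 7.54, below the background limit, in the control spleen). In the other direction, Hsd3b7, an enzyme that inactivates the oxysterol ligand of GPR183, had a difference of -0.75, and the integrin chain Itgb7 one of -0.64. Gpr183 itself, which guides B cells and dendritic cells to the edge of the follicle, had 0.13.

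The 2 platelet chemokines, whose symbols do not follow the family's numbering, differed from each other. Ppbp had 11.0 in the cocaine spleen and 13.2 in the control spleen, a difference of -2.13, while Pf4 had 13.2 in the cocaine spleen and 13.4 in the control spleen, a difference of -0.19. Of 6 markers of megakaryocytes and platelets, which include these 2, none had a positive difference, Ppbp and Gp1ba, the second with both signals below the background limit, were at least 2-fold lower, and the median was -0.56. The atypical receptor Ccrl2 had a difference of -0.997, just within 2-fold, with both signals below the background limit. In fat next to the spleen, 1 of 4 markers, Adipoq, had a difference of -2.06, or -0.52 with its cocaine signal raised to the background limit, and all 6 pancreas markers had both signals below the background limit.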
